A study of Mus musculus with 7 samples.

Results

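Bone morphogenetic proteins (BMPs) and the genes that receive their signal were followed in the injured mouse retina through 10 genes chosen by name: the ligand genes Bmp2, Bmp4, Bmp7 and Gdf11, the receptor genes Bmpr1a, Bmpr1b and Bmpr2, and the target genes Id1, Id2 and Id3. All 10 were among the 25655 genes of the count table, and all 10 were among the 14750 genes with enough counts to be tested. Whole retinas of wildtype C57BL/6 mice were taken on day 2 after optic nerve crush, which injures the axons of retinal ganglion cells. The tested retinas had received AAV2, an adeno-associated viral vector, for overexpression of Tppp3 (3 libraries), and the others a control AAV2, which the labels tie to a CMV construct (3 libraries). Every retina was thus both injured and given a vector, and the comparison asked which transcripts differed with Tppp3, a tubulin polymerization-promoting protein. The age of the mice, the promoter that drives Tppp3 and whether each library came from another animal are not stated in the labels, so p-values measure the spread between these libraries.

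BMP ligands are secreted dimers that bring together type I receptors, such as Bmpr1a and Bmpr1b, and type II receptors, such as Bmpr2. The activated type I receptor phosphorylates SMAD1, SMAD5 and SMAD9, which enter the nucleus with SMAD4 and switch on target genes, among which the Id genes are the classic readout. Gdf11 belongs to the same ligand superfamily but signals mainly through activin-type receptors to SMAD2 and SMAD3. In the developing mouse eye Bmp4 patterns the dorsal retina, Bmp7 acts in the formation of the eye and lens, and Gdf11 limits the production of ganglion cells.

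The libraries held 19961359 to 21843892 gene counts in the Tppp3 AAV2 group and 10961443 to 16218074 in the control AAV2 group. Levels are therefore given as CPM, counts relative to the library size after TMM scaling. Tppp3 itself stood at 53.7, 36.5 and 41.8 CPM in the Tppp3 AAV2 libraries and at 18.7, 22.2 and 28.02 CPM in the control AAV2 libraries, and reads of the native gene and of the vector were not separated. The Tppp3 fold was 1.91, at an adjusted p of 0.639 in edgeR and of 1.33e-05 in DESeq2's Wald test. Photoreceptor markers, which define the tissue as retina, summed to 47230 to 56340 CPM in Tppp3 AAV2 libraries and 53830 to 60810 CPM in control AAV2 libraries, with none of the 11 at 0 in any library. Markers of the pigment epithelium, the cell layer behind the retina, differed widely within each group. Their 13 genes summed to 256.9, 76.2 and 245.3 CPM in Tppp3 AAV2 replicates 1, 2 and 3, and to 243.6, 64.7 and 61.2 CPM in control AAV2 replicates 1, 2 and 3.

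No BMP gene passed the test. At an adjusted p under 0.05 in edgeR's quasi-likelihood test, 0 of the 10 members were called, where 0.0136% of all genes tested were called (2 genes, Fn1 and Krt7, both lower in Tppp3 AAV2 retinas and named here after their values were seen). At an unadjusted p under 0.05 the members were Gdf11, Bmpr2 and Bmp4, all of them higher in Tppp3 AAV2 retinas. The share of all genes tested that reached this level was 3.67% in the same direction, 3.55% in the lower direction and 7.23% in both together. DESeq2's Wald test also called 0 members and gave the same 3 at an unadjusted p under 0.05. Of the 10 members, 8 had a positive log2 fold change, against 50.9% of all genes tested, and their median was 0.20 against 0.0030 for all genes. The groups did not overlap in 3 members, Gdf11, Bmpr2 and Id1, each higher in every Tppp3 AAV2 library, where 6.92% of all genes tested were higher in this way, 7.02% were lower, and 13.9% did not overlap in either direction.

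**Figure D1:**
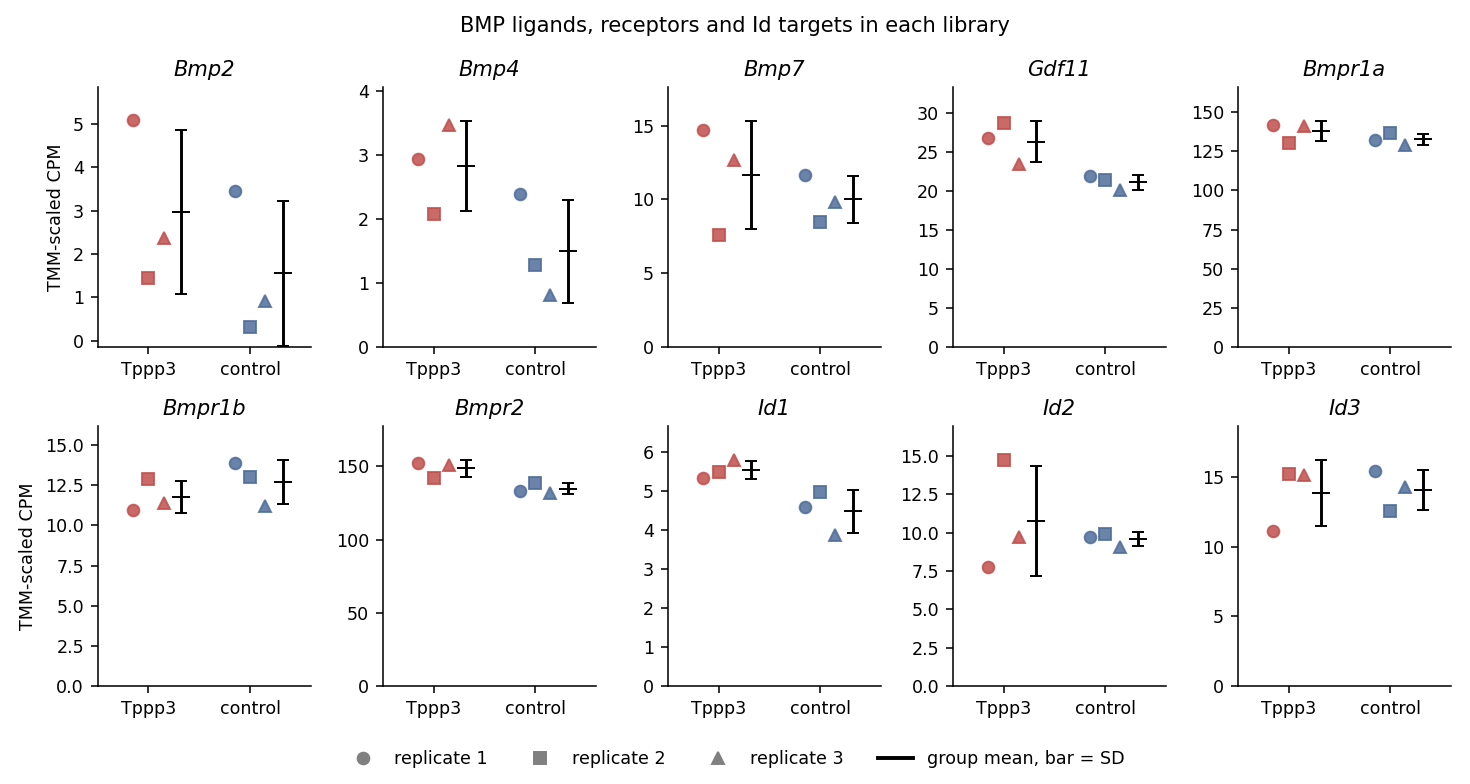
Level of each of the 10 members in TMM-scaled CPM (vertical axes, linear) in the 3 Tppp3 AAV2 libraries (left, red) and the 3 control AAV2 libraries (right, blue), with the mean and SD of each group in black. Gdf11, Bmpr2 and Id1 show separate groups, while the other 7 members overlap.

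Divided by the length of their exons, the members spanned a wide range of levels. The type I receptor gene Bmpr1a stood highest, at 21.7 ± 1.002 CPM per kb in Tppp3 AAV2 retinas and 20.8 ± 0.578 CPM per kb in control AAV2 retinas (SD, n = 3 per group). Id3 and Bmpr2 followed, with Id3 at 7.71 ± 1.32 and 7.86 ± 0.800 CPM per kb in the Tppp3 and control AAV2 groups, and Bmpr2 at 8.26 ± 0.310 and 7.48 ± 0.209. Those 2 genes did not differ from each other beyond their spread in either group. Gdf11 came next, at 6.47 ± 0.651 CPM per kb in Tppp3 AAV2 retinas and 5.20 ± 0.236 in control AAV2 retinas. Id1 and Id2 lay at 4.78 ± 0.199 and 4.40 ± 1.47 CPM per kb in Tppp3 AAV2 retinas and at 3.87 ± 0.478 and 3.92 ± 0.186 in control AAV2 retinas, so their order was not resolved. The second type I receptor gene, Bmpr1b, had 1.97 ± 0.165 CPM per kb in Tppp3 AAV2 retinas and 2.13 ± 0.228 in control AAV2 retinas, far below Bmpr1a and close to Bmp7, at 2.90 ± 0.905 and 2.49 ± 0.398. Bmp4 and Bmp2 were the scarcest. Bmp4 had 1.26 ± 0.313 CPM per kb in Tppp3 AAV2 retinas and 0.666 ± 0.359 in control AAV2 retinas, and Bmp2 had 0.834 ± 0.532 and 0.437 ± 0.469, so that neither could be placed above the other.

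Among the ligands, Bmp4 showed one of the largest differences and was among the least counted. Bmp4 encodes a secreted ligand for the Bmpr1a and Bmpr1b receptors. It had 58, 46 and 73 raw counts in the deeper Tppp3 AAV2 libraries and 27, 21 and 9 in the control AAV2 libraries. Scaled to library size, Bmp4 stood at 2.95, 2.08 and 3.47 CPM in Tppp3 AAV2 replicates 1, 2 and 3, and at 2.39, 1.29 and 0.813 CPM in control AAV2 replicates 1, 2 and 3. The groups overlapped, because control replicate 1 exceeded Tppp3 replicate 2. The log2 fold change was 0.92 ± 0.38 (SE), a 1.89-fold difference with a 95% interval of 1.06 to 3.37, an unadjusted p of 0.0326 and an edgeR adjusted p of 0.673. An exact permutation test of the 6 libraries gave p = 0.2, two-sided. Without control replicate 1 the Bmp4 log2 fold change was 1.39, and without control replicate 3 it was 0.65.

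Bmp2, a close relative of Bmp4 that binds the same type I receptors, varied more within groups than between them. Its level was 5.08, 1.44 and 2.37 CPM in Tppp3 AAV2 replicates 1, 2 and 3, and 3.45, 0.307 and 0.904 CPM in control AAV2 replicates 1, 2 and 3. The highest control library was 11.2 times the lowest, and it also exceeded 2 of the 3 Tppp3 libraries. The 2 lowest control libraries held only 5 and 10 raw counts. The log2 fold change of 0.98 ± 0.92 (SE) had a 95% interval of -1.36 to 3.32 and an edgeR adjusted p of 0.869. It was 2.36 without control replicate 1 and 0.34 without Tppp3 replicate 1, so the size of the Bmp2 difference was set by single libraries.

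Bmp7 was the best expressed of the 3 BMP ligands among the members. It had 14.7, 7.62 and 12.7 CPM in Tppp3 AAV2 replicates 1, 2 and 3. In control AAV2 replicates 1, 2 and 3 it had 11.7, 8.48 and 9.85 CPM. The lowest and the highest of the 6 values both belonged to the Tppp3 AAV2 group. The coefficient of variation was 31.2% in Tppp3 AAV2 retinas and 16.0% in control AAV2 retinas. Its difference on the log2 scale was 0.23 ± 0.24 (SE), at an edgeR adjusted p of 0.884. Without Tppp3 replicate 1 the log2 fold change of Bmp7 was 0.021.

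Among the members, the 3 BMP ligands moved with the pigment epithelium markers from library to library. Bmp2, Bmp4 and Bmp7 were each highest in Tppp3 replicates 1 and 3 and control replicate 1, the same 3 libraries in which those markers summed to 243.6 CPM or more. That held for 0 of the other 7 members and for 8.32% of all genes tested. Bmp3, Bmp5 and Bmp6, ligand genes outside the members, did not show this split. Bmp3 had 22.25, 26.29 and 21.51 CPM in Tppp3 AAV2 replicates 1, 2 and 3. In control AAV2 replicates 1, 2 and 3 it had 22.98, 24.28 and 21.96 CPM. The pigment epithelium genes with the highest mean level, Ttr and Rgr, did show the split. Ttr, a carrier of thyroid hormone and retinol-binding protein, had 94.5, 36.0 and 87.2 CPM in Tppp3 AAV2 replicates 1, 2 and 3, and 83.5, 28.1 and 32.7 CPM in control AAV2 replicates 1, 2 and 3. Rgr, an opsin of pigment epithelium and Müller glia, had 80.7, 9.70 and 74.7 CPM, against 69.0, 11.99 and 9.67 CPM in the controls in the same order. Of the 13 markers, 9 showed it, and 4 (Best1, Mlana, Slc45a2 and Rrh) did not. All 11 pigment epithelium markers that could be tested had a positive log2 fold change, with a median of 0.71. One of the 13 markers, Slc45a2, was at 0 in control replicate 3, and 0 of the 13 were at 0 elsewhere.

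**Figure D2:**
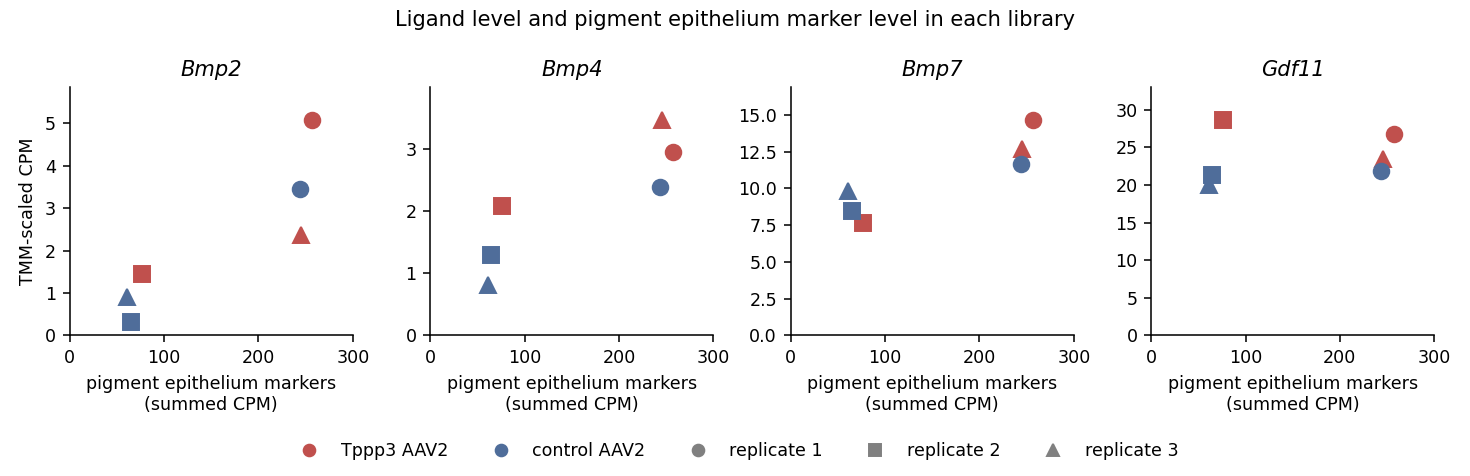
Level of Bmp2, Bmp4, Bmp7 and Gdf11 in TMM-scaled CPM (vertical axes) against the summed CPM of 13 pigment epithelium markers (horizontal axis) in each of the 6 libraries, Tppp3 AAV2 in red and control AAV2 in blue, with a symbol per replicate. Bmp2, Bmp4 and Bmp7 are each higher in the 3 libraries at 243.6 to 256.9 marker CPM than in the 3 at 61.2 to 76.2, and Gdf11 is not.

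Each group has libraries at both marker levels, but one level holds a single control library and the other a single Tppp3 library, so values are given within a level with no test. Where the markers were high, Bmp4 had 2.95 and 3.47 CPM in Tppp3 replicates 1 and 3, against 2.39 in control replicate 1. Where they were low, it had 2.08 CPM in Tppp3 replicate 2, against 1.29 and 0.813 in control replicates 2 and 3. Bmp2 had 5.08 and 2.37 CPM in Tppp3 replicates 1 and 3, against 3.45 in control replicate 1, and 1.44 CPM in Tppp3 replicate 2, against 0.307 and 0.904 in control replicates 2 and 3. Bmp7 had 14.7 and 12.7 CPM against 11.7 where the markers were high, and 7.62 CPM against 8.48 and 9.85 where they were low, in the same libraries. As an alternative chosen after seeing the data, a pigment epithelium covariate was added to the edgeR fit. This covariate was the mean log2 CPM of the 11 tested markers and not their summed CPM. With it, the log2 fold change was 0.49 for Bmp4 (unadjusted p = 0.138, adjusted p = 0.714), 0.28 for Bmp2 (adjusted p = 0.904) and -0.083 for Bmp7 (adjusted p = 0.936). In RNA of whole tissue, fewer cells of a type and less RNA per cell cannot be told apart. Lens markers also stood apart in Tppp3 replicate 1, the library with the most Bmp2 and Bmp7. They summed to 25.4 CPM there and to 2.44 and 5.08 CPM in Tppp3 replicates 2 and 3. In control replicates 1, 2 and 3 they summed to 4.51, 6.27 and 1.72 CPM. The rank rested on the crystallin genes Cryaa, Cryba1, Crybb2 and Crygs, with Cryaa at 13.7 CPM in Tppp3 replicate 1. Mip had 0.610 CPM there, against 0.796 in control replicate 1. Bfsp1 had 0.152 CPM there, against 0.615 in control replicate 2. The part of the lens in the result was not tested.

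Gdf11, the ligand that signals through activin-type receptors, had the smallest p of the 10 members. It stood at 26.7, 28.7 and 23.5 CPM in Tppp3 AAV2 replicates 1, 2 and 3, and at 21.9, 21.4 and 20.1 CPM in control AAV2 replicates 1, 2 and 3. Every Tppp3 AAV2 library lay above every control AAV2 library. The means were 26.3 ± 2.64 CPM in Tppp3 AAV2 retinas and 21.1 ± 0.957 CPM in control AAV2 retinas (SD, n = 3 per group), a 1.24-fold difference with a 95% interval of 1.08 to 1.44. The log2 fold change was 0.31 ± 0.095 (SE), with an unadjusted p of 0.00662, rank 136 among all genes tested, and an edgeR adjusted p of 0.639. The exact permutation test gave p = 0.1, two-sided, the smallest that 3 against 3 libraries allow. The difference was present with each library left out, at log2 fold changes of 0.25 to 0.39, and was 0.33 (adjusted p = 0.538) when the pigment epithelium level entered the fit.

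The receptor genes differed little, and the intervals of Bmpr1a and Bmpr2 were the narrowest of all members. Bmpr2, the type II receptor that starts the signal once a ligand is bound, had 152.4, 142.2 and 151.0 CPM in Tppp3 AAV2 replicates 1, 2 and 3, and 133.0, 138.8 and 131.8 CPM in control AAV2 replicates 1, 2 and 3. The lowest Tppp3 AAV2 library was above the highest control AAV2 library by a small margin. The fold was 1.10, with a 95% interval of 1.02 to 1.19, a log2 fold change of 0.14 ± 0.050 (SE), an unadjusted p of 0.0155 and an edgeR adjusted p of 0.648. The exact permutation p was 0.1, two-sided, again the smallest possible. Leaving out single libraries gave log2 fold changes of 0.12 to 0.17 for Bmpr2. Its sequence before the transcription start is shown because Bmpr2 is the receptor gene whose groups did not overlap. The 250 bases (RefSeq, GRCm38.p6, chr1:59764029-59764278, plus strand) hold in capitals 1 match, starting 105 bases before the start, to GGCGCC, a palindrome described as a core of BMP-responsive SMAD elements.
Bmpr2: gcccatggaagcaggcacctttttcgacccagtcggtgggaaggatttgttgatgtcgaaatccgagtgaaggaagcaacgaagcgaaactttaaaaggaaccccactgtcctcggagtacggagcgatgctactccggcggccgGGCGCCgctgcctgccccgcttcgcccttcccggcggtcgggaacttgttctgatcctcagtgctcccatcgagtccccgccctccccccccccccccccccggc

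Bmpr1a was the type I receptor gene with the higher level among the members. It had 141.8, 130.4 and 141.0 CPM in Tppp3 AAV2 replicates 1, 2 and 3. In control AAV2 replicates 1, 2 and 3 it had 132.1, 136.2 and 128.9 CPM. The groups overlapped, and the fold of 1.04 had a 95% interval of 0.961 to 1.12 (edgeR adjusted p = 0.850). Bmpr1b, the other type I receptor among the members, had 11.0, 12.8 and 11.4 CPM in Tppp3 AAV2 replicates 1, 2 and 3. In control AAV2 replicates 1, 2 and 3 it had 13.9, 13.0 and 11.2 CPM. Its groups overlapped too, at a fold of 0.925 with a 95% interval of 0.767 to 1.12 (edgeR adjusted p = 0.884). Summed, the 3 receptor genes stood at 298.0 ± 10.9 CPM in Tppp3 AAV2 retinas and 279.6 ± 8.07 CPM in control AAV2 retinas (SD, n = 3 per group), with overlapping groups. Sequences before the start were matched for 7 of the 10 members, all but Bmp2, Bmp7 and Id1. Bmpr1a, whose groups overlapped, also holds 1 GGCGCC, which starts 198 bases before the start. Gdf11, whose groups did not overlap, holds 0 GGCGCC. A link between the motif and the group difference was not tested.

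**Figure D3:**
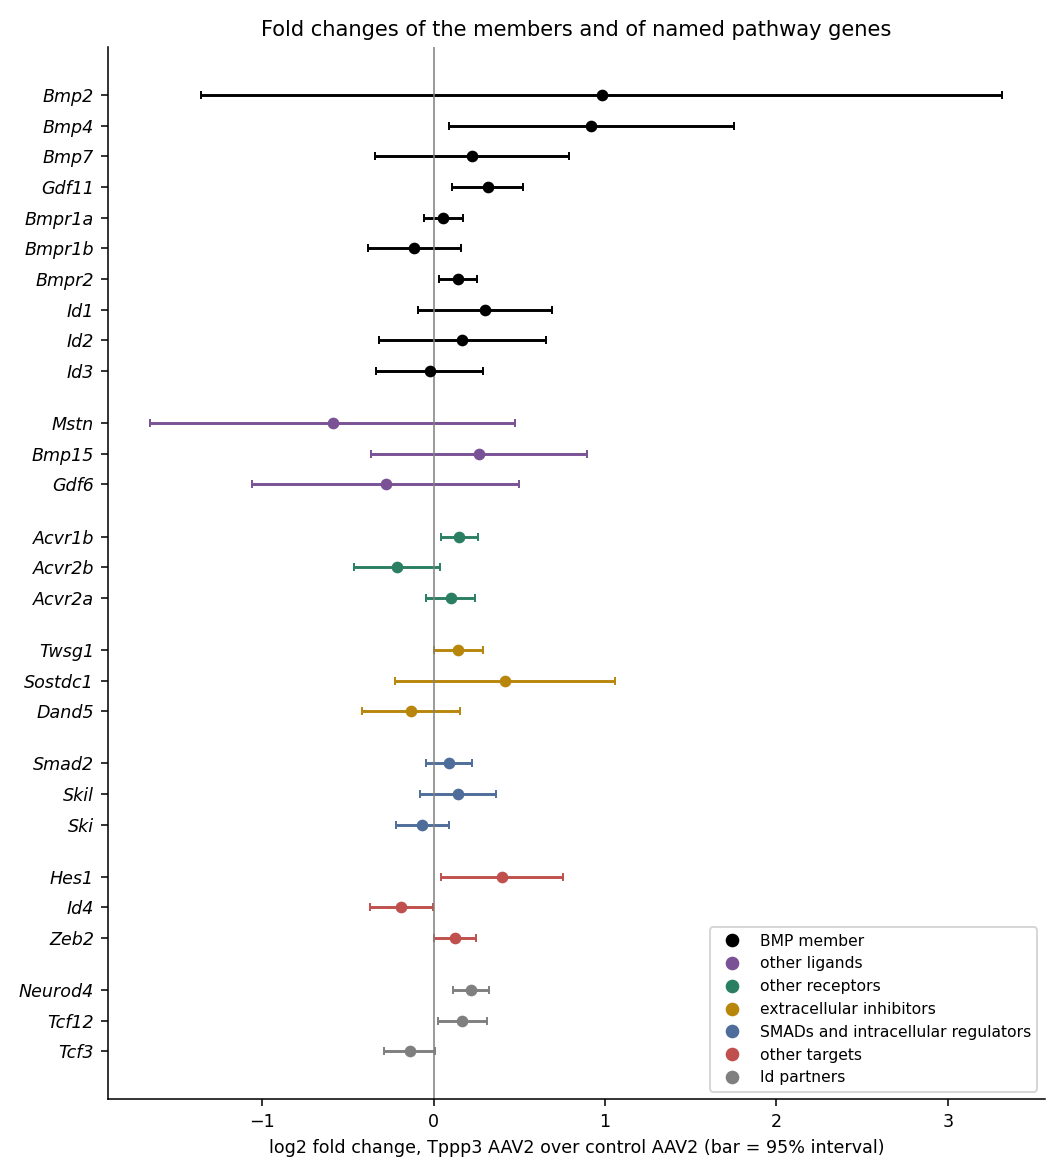
Log2 fold change of Tppp3 AAV2 over control AAV2 with its 95% interval (horizontal axis) for the 10 members (black) and for 3 named genes of each of 6 pathway lists (colours). Bmp2 has the widest interval, from -1.36 to 3.32, and the intervals of Bmp4, Gdf11 and Bmpr2 lie above 0 before any adjustment.

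The 3 Id targets, which encode helix-loop-helix proteins that bind E proteins and keep them from DNA, did not move alike. Id1 had 5.34, 5.50 and 5.79 CPM in Tppp3 AAV2 replicates 1, 2 and 3, and 4.60, 4.98 and 3.89 CPM in control AAV2 replicates 1, 2 and 3. All Tppp3 AAV2 libraries were above all control AAV2 libraries. These levels rest on 105, 122 and 122 raw counts in the Tppp3 AAV2 libraries and 52, 81 and 43 in the control AAV2 libraries. The fold was 1.23 with a 95% interval of 0.939 to 1.61, the log2 fold change 0.30 ± 0.18 (SE), the unadjusted p 0.119 and the edgeR adjusted p 0.767. The exact permutation test gave p = 0.1, two-sided, its smallest value. With single libraries left out the Id1 log2 fold change ranged from 0.21 to 0.39.

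Id2 had 7.77, 14.7 and 9.69 CPM in Tppp3 AAV2 replicates 1, 2 and 3, and 9.72, 9.89 and 9.04 CPM in control AAV2 replicates 1, 2 and 3. Tppp3 replicate 2 was far above all others, Tppp3 replicate 1 was the lowest, and the control AAV2 libraries lay close together. The coefficient of variation was 33.4% in Tppp3 AAV2 retinas and 4.75% in control AAV2 retinas. The log2 fold change of 0.17 ± 0.22 (SE, edgeR adjusted p = 0.907) turned to -0.13 without Tppp3 replicate 2. That library also had the highest sums of astrocyte, endothelial, microglia and mural and fibroblast markers, and the lowest sums of photoreceptor and ganglion cell markers. Not every marker followed its sum. The photoreceptor markers Arr3 and Opn1mw, at 154.0 and 97.0 CPM, were higher there than in any other library. The mural marker Acta2, at 1.67 CPM, was lower there than in any other. In control replicate 2, the ganglion cell marker Rbpms was lower (11.4 against 11.6 CPM) and the microglia marker Csf1r higher (49.2 against 47.9 CPM). Astrocyte markers, 3 genes led by Gfap, summed to 89.7, 127.7 and 53.0 CPM in Tppp3 AAV2 replicates 1, 2 and 3. In control AAV2 replicates 1, 2 and 3 they summed to 55.5, 115.7 and 117.3 CPM. The astrocyte rank rested on Gfap, at 108.9 CPM in Tppp3 replicate 2. Pax2 had 0.677 CPM there, against 0.861 in control replicate 2. Pdgfra had 18.1 CPM there, against 19.6 in control replicate 3. Endothelial markers, 12 genes led by Kdr and Flt1, summed to 418.0, 539.4 and 384.9 CPM in Tppp3 AAV2 replicates 1, 2 and 3, and to 459.1, 415.3 and 432.4 CPM in control AAV2 replicates 1, 2 and 3. The endothelial rank rested on Kdr, a receptor of vascular growth factor, without which the other 11 genes summed to 192.0, 205.2 and 198.9 CPM in the Tppp3 AAV2 libraries and to 183.3, 213.9 and 222.0 CPM in the control AAV2 libraries. Microglia markers summed to 162.7, 259.5 and 136.5 CPM in Tppp3 AAV2 replicates 1, 2 and 3, and to 147.0, 239.6 and 229.1 CPM in control AAV2 replicates 1, 2 and 3. None of the astrocyte and endothelial markers was at 0 in any library, and the part of these cell types in the Id2 values was not tested.

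Id3 had 11.1, 15.2 and 15.1 CPM in Tppp3 AAV2 replicates 1, 2 and 3, and 15.4, 12.5 and 14.3 CPM in control AAV2 replicates 1, 2 and 3. The groups overlapped almost fully, at a fold of 0.985 with a 95% interval of 0.793 to 1.22 (edgeR adjusted p = 0.986). The sign of its log2 fold change, -0.022, turned to 0.11 without Tppp3 replicate 1 and to 0.044 without control replicate 1. The 3 Id genes together summed to 30.1 ± 5.63 CPM in Tppp3 AAV2 retinas and 28.1 ± 1.39 CPM in control AAV2 retinas (SD, n = 3 per group). Id4, the remaining family member, pointed the other way from Id1. It had 36.02, 40.8 and 42.4 CPM in the Tppp3 AAV2 libraries and 41.6, 45.4 and 48.8 CPM in the control AAV2 libraries, with a log2 fold change of -0.19 ± 0.083 (SE), an unadjusted p of 0.0445 and an edgeR adjusted p of 0.684. The difference between the Id genes was not itself tested.

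The sequences before the start of Id2 and Id3 are shown because both are BMP targets in which no difference was resolved. In capitals are matches to GGCGCC, or to CAGAC on either strand (GTCTG on the other), the motif that SMAD3 and SMAD4 bind. Id2 (RefSeq, GRCm38.p6, chr12:25096093-25096342, minus strand) holds 1 GGCGCC, which starts 231 bases before the start, and 0 CAGAC. Id3 (chr4:136143572-136143821, plus strand) holds 2 CAGAC, which start 167 and 68 bases before it, and 0 GGCGCC. Among 32851 sequences of this length in the same table, 9.59% hold GGCGCC and 42.2% hold CAGAC on either strand, so a match is a description of the letters.
Id2: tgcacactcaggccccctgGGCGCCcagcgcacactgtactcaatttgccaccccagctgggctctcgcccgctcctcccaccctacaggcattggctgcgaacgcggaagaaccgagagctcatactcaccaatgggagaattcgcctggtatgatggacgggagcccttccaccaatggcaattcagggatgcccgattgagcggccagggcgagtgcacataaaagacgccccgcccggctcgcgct
Id3: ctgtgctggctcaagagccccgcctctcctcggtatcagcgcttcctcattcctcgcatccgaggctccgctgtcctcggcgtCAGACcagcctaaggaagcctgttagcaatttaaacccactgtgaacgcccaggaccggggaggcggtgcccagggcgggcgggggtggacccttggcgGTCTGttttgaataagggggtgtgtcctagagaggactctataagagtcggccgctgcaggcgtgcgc

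**Figure D4:**
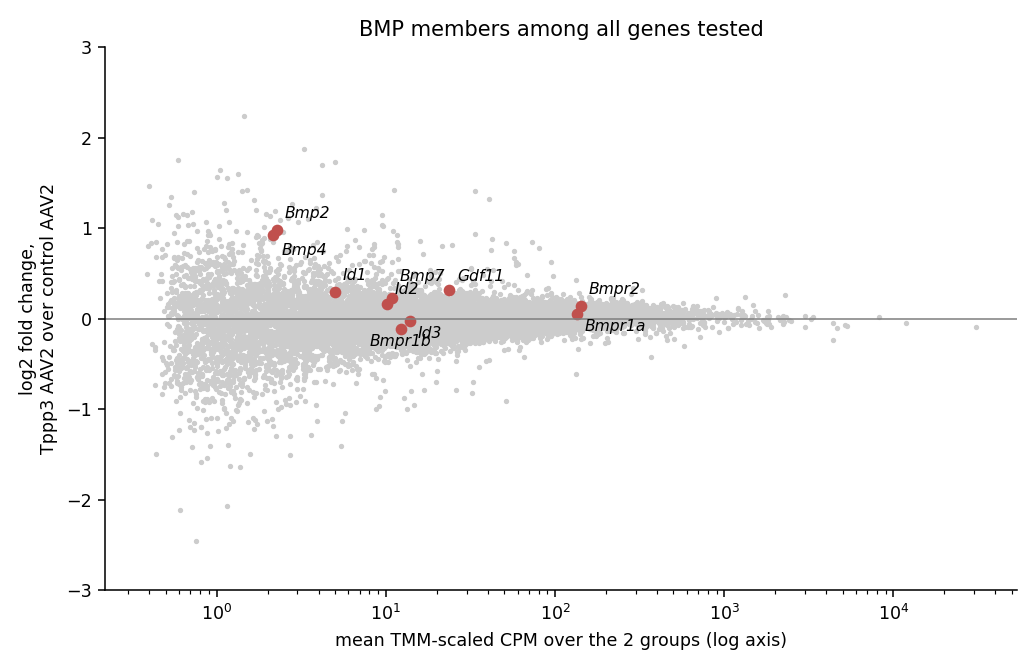
Log2 fold change of Tppp3 AAV2 over control AAV2 (vertical axis) against the mean TMM-scaled CPM of the groups (horizontal log axis) for all genes tested in grey, with 2 genes beyond the limits of 3 on the vertical axis, and the 10 members in red. Bmp2 and Bmp4 lie at low counts, where all genes scatter widely, and Bmpr1a and Bmpr2 at high counts, where the scatter is narrow.

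Around the members, 76 further genes of the pathway were read in 6 lists by role, of which 60 could be tested. None passed the threshold over all genes. At an unadjusted p under 0.05, 6 were higher and 1 was lower in Tppp3 AAV2 retinas, where 3.67% of all genes tested were higher and 3.55% lower at this level. Their median log2 fold change was 0.030, close to the 0.0030 of all genes tested. The 16 that could not be tested averaged at most 0.567 CPM over the 6 libraries. That highest mean belonged to Nog, of the extracellular inhibitors, whose libraries were uneven. It had 28, 3 and 25 raw counts in Tppp3 AAV2 replicates 1, 2 and 3, and 3, 2 and 3 in control AAV2 replicates 1, 2 and 3. The Nog groups overlapped in CPM, and its difference was not tested.

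Over 11 tested genes, the other ligands had a median of 0.016 on the log2 scale, 6 positive and 5 negative, and 8 of the 19 listed had too few counts. Mstn, myostatin, the closest relative of Gdf11, had 0.393 ± 0.129 CPM in Tppp3 AAV2 retinas and 0.601 ± 0.0425 CPM in control AAV2 retinas (SD, n = 3 per group), with an edgeR adjusted p of 0.834. The Mstn levels rest on only 6, 12 and 7 raw counts in the Tppp3 AAV2 libraries and 7, 9 and 7 in the control AAV2 libraries. Bmp15, a ligand best known from the ovary, stood at a log2 fold change of 0.26 (adjusted p = 0.880) and Gdf6, which patterns the dorsal eye in vertebrates, at -0.28 (adjusted p = 0.905). With single libraries left out, Bmp15 ranged from 0.057 to 0.59 and Gdf6 from -0.51 to -0.079. Other receptors had a median of 0.032 over 10 tested genes, with 6 positive. Acvr1b, a type I receptor of activins and Gdf11, had 132.6, 131.8 and 126.9 CPM in Tppp3 AAV2 replicates 1, 2 and 3, and 114.7, 122.4 and 115.7 CPM in control AAV2 replicates 1, 2 and 3. Its groups did not overlap, at a log2 fold change of 0.15 ± 0.049 (SE), an unadjusted p of 0.0114 and an edgeR adjusted p of 0.648. The type II receptors of Gdf11 lay on opposite sides, Acvr2b at -0.21 (adjusted p = 0.745) and Acvr2a at 0.10 (adjusted p = 0.783), both with overlapping groups. Acvr2b was at -0.35 without control replicate 1 and at -0.11 without control replicate 2.

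Extracellular inhibitors, which bind ligands and keep them from receptors, showed a median of 0.067 (log2 fold change, 12 tested genes), with 9 positive. Twsg1, whose product binds BMPs together with chordin, had 68.3, 73.6 and 63.7 CPM in Tppp3 AAV2 replicates 1, 2 and 3, and 63.7, 60.9 and 61.6 CPM in control AAV2 replicates 1, 2 and 3. The lowest Tppp3 AAV2 value, in replicate 3, was barely above the highest control value, and the log2 fold change was 0.14 (edgeR adjusted p = 0.688). Sostdc1, an antagonist of BMP and Wnt signals, stood at 0.42 (adjusted p = 0.802) and Dand5, an antagonist of Nodal, at -0.13 (adjusted p = 0.868). With the pigment epithelium covariate in the fit, Sostdc1 was at 0.18. SMADs and intracellular regulators had a median of 0.022 over 13 tested genes, with 9 positive and 0 past an unadjusted p of 0.05. Smad2, which carries the signals of Gdf11 and activins, stood at 0.090 (adjusted p = 0.790), and the SMAD repressors Skil and Ski at 0.14 (adjusted p = 0.802) and -0.065 (adjusted p = 0.880). Smad2 was at 0.032 with the pigment epithelium covariate. With single libraries left out, Skil ranged from 0.028 to 0.23 and Ski from -0.11 to -0.014.

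Other targets showed a median of -0.064 (log2 fold change, 8 tested genes), 4 positive and 4 negative. Hes1, a repressor also driven by Notch, had 8.84, 11.0 and 13.7 CPM in Tppp3 AAV2 replicates 1, 2 and 3, and 8.58, 8.42 and 8.41 CPM in control AAV2 replicates 1, 2 and 3. The control AAV2 libraries were nearly equal and all below the Tppp3 AAV2 libraries, with a log2 fold change of 0.40 ± 0.16 (SE) and an edgeR adjusted p of 0.673. It was 0.23 without Tppp3 replicate 3. Zeb2, a SMAD-binding repressor, stood at 0.12 (adjusted p = 0.688), also with separate groups. Among the E proteins and neuronal factors that Id proteins can hold back, the median was 0.051 over 6 tested genes. Neurod4, a neuronal factor, had 172.8, 171.1 and 181.1 CPM in Tppp3 AAV2 replicates 1, 2 and 3, and 149.0, 149.3 and 152.9 CPM in control AAV2 replicates 1, 2 and 3. It had the smallest p of all 60 genes, with a log2 fold change of 0.22 ± 0.047 (SE) and an edgeR adjusted p of 0.624. The E protein genes Tcf12 and Tcf3 stood at 0.17 (adjusted p = 0.661) and -0.14 (adjusted p = 0.717), and every Tppp3 AAV2 library was below every control AAV2 library in Tcf3.

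**Figure D5:**
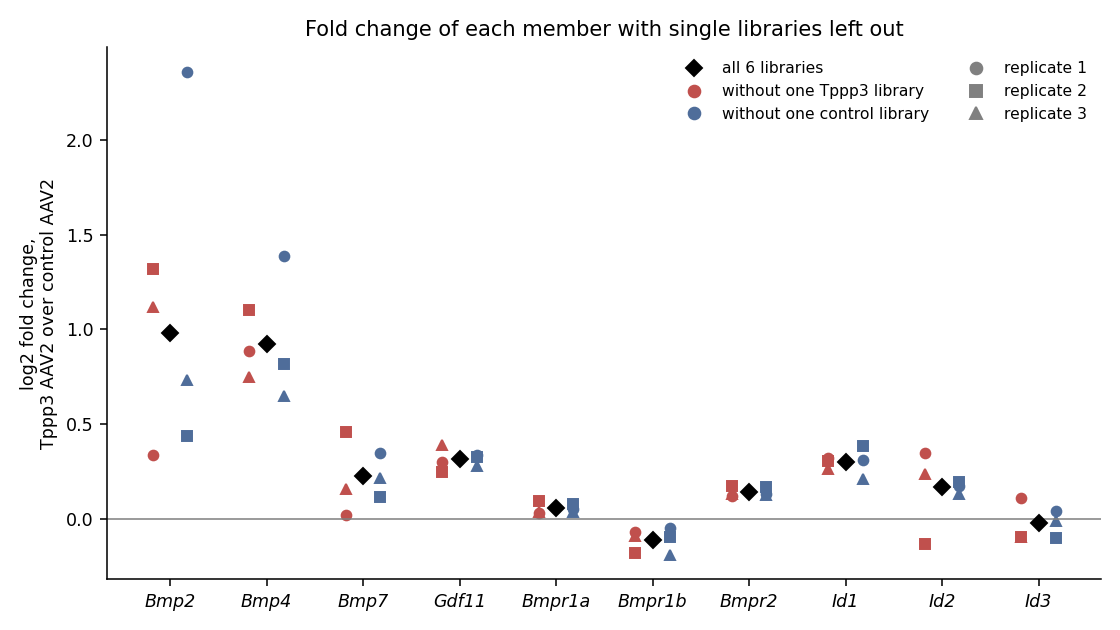
Log2 fold change of Tppp3 AAV2 over control AAV2 (vertical axis) of each member from all 6 libraries (black diamonds) and with 1 Tppp3 AAV2 library (red) or 1 control AAV2 library (blue) left out, with a symbol per replicate. Bmp2 ranges from 0.34 to 2.36 and Bmp4 from 0.65 to 1.39, while Gdf11 stays between 0.25 and 0.39, and Id2 and Id3 change sign.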

How the data were processed

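The authors deposited raw counts, whole numbers per gene symbol, per the file headers. The genome build was GRCm39, per the submitters' processing notes. The aligner, the counter, their annotation and any strand setting: not given in the sources used here. Libraries were poly(A)-selected and sequenced as paired reads of 150 bases, per the labels' protocols. The labels list 3 Tppp3 AAV2 and 4 control AAV2 samples, while the treatment protocol gives the numbers the other way round; the sample labels were followed. Columns matched 6 samples by title. The fourth control sample was not analysed here. No use was made of 1 column without a matching sample. Its name calls it another Tppp3 library, so the columns of the table follow the protocol's numbers and not those of the labels.

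Genes were filtered by edgeR's filterByExpr, scaled by TMM and tested over the whole table with edgeR's robust quasi-likelihood test (two-sided, adjusted by Benjamini-Hochberg, threshold 0.05). Replicates had a common biological coefficient of variation of 11.9%. Standard errors came from the fold change and F statistic, and 95% intervals are unadjusted. Permutation tests used log2 CPM with a prior count of 2. Exon lengths are unions of exons in GENCODE M21 (GRCm38), of another build than the counts. In it, exons of Bmp4 and Bmpr1a overlap those of a gene on the other strand over 3.96% and 4.57% of their length. The kit does not mark strand, so such reads cannot be told apart. The gene opposite Bmp4, Gm15217, had 0 counts in every library, and the gene opposite Bmpr1a was not among the counted genes. Promoters are from RefSeq. Replicates of a group differed beyond sampling noise, with chi-square values per gene of 4.1 to 13.9.

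The members, lists and the rule for named genes (all 10 members, the 3 tested genes of smallest p of each pathway list, and the 2 best expressed genes of a marker list that moves with a member) were chosen with earlier results of these data known. Alternatives were DESeq2's size factors, limma's voom with quality weights, DESeq2's Wald test, other filters, a replicate block, single libraries left out, thinning to equal depth and, added after seeing the data, the pigment epithelium level as a covariate. The procedure was tested on simulated data, where calls were required only for differences larger than that of any member. That test does not show whether differences as small as those of the members would be called. Tools were Python 3.11.15, matplotlib 3.10.9, R 4.3.3 and its packages DESeq2 1.42.0, edgeR 4.0.16 and limma 3.58.1. Library depth was 10961443 to 21843892 counts, and sampling noise from counting was largest for Bmp2 and Bmp4. Their spread was larger still. The coefficient of variation of Bmp2 was 63.7% in Tppp3 AAV2 and 107% in control AAV2 retinas, against 12.8% and 23.6% from counting alone. For Bmp4 it was 24.8% and 53.9%, against 13% and 22.9%.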

Additional observations from a re-analysis of the deposited data

How the results depend on the processing

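In each of the 14 alternatives tried, 0 members passed the adjusted threshold, and their smallest adjusted p ranged from 0.457 to 0.999. With all 6 libraries, 0 genes were higher and 2 lower over the whole table. DESeq2's Wald test gave 2 higher and 12 lower, limma's voom 1 lower, no low-count filter 6 lower, and the pigment epithelium covariate 1 higher and 1 lower. Leaving out single libraries gave 0 to 2 higher and 0 to 1 lower. Bmp4, Bmp2, Gdf11, Bmpr1a, Bmpr2 and Id1 were positive and Bmpr1b negative in every alternative. Bmp7 turned to -0.083 with the pigment epithelium covariate, and Id3 to 0.0036 with voom. With single libraries left out, Id2 ranged from -0.13 (without Tppp3 replicate 2) to 0.35, and Id3 from -0.10 to 0.11 (without Tppp3 replicate 1), with 0.044 without control replicate 1. The cause of these turns was not tested. Gdf11 alone had an unadjusted p under 0.05 in all 14 alternatives. Bmp4 and Bmpr2 lost it without Tppp3 replicate 1, without Tppp3 replicate 3 and without control replicate 3, and Bmp4 also without control replicate 2 and with the covariate.

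Same-numbered libraries of the groups did not deviate together (correlations of -0.029, 0.051 and -0.26), so the number is not taken to pair them. With the replicate block, 0 genes were higher and 1 lower, 0 members passed, and Bmp2 had an unadjusted p of 0.0089 (adjusted p = 0.675).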
